A study of Mus musculus with 8 samples.

Results

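The genes described here are 8 multicopy families of the mouse, most of them known from 2-cell embryos and 2-cell-like cells: Zscan4, Usp17l, Tdpoz, Tcstv, Pramel, Pramef, Trim43 and Obox. The rule took every gene in the deposited count table whose symbol starts with one of these 8 prefixes. This gave 94 of 55401 genes: 55 Obox, 9 Zscan4, 7 Pramel, 7 Pramef, 6 Usp17l, 5 Tdpoz, 3 Trim43 and 2 Tcstv genes. Of the 94, 34 had enough counts to be tested, namely 9 Zscan4, 5 Usp17l, 2 Tdpoz, 2 Tcstv, 3 Pramel, 5 Pramef, 3 Trim43 and 5 Obox genes. The other 60 had at most 40 counts each over all libraries, and 24 of them had 0 counts in every library.

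The RNA came from R1, a mouse embryonic stem cell (ESC) line, either control (labelled CTL, genotype WT) or from stable lines with a knockout of Zfp462, a zinc finger gene. Both genotypes were sampled as ESCs grown on gelatin in serum with LIF, a cytokine that keeps ESCs undifferentiated, and as embryoid bodies (EBs), aggregates formed in Petri dishes over 3 days. The 4 groups, control ESCs, knockout ESCs, control EBs and knockout EBs, had 2 poly(A)-selected libraries each. The study asked how loss of Zfp462 affects self-renewal and differentiation. The labels do not say how many knockout clones were used or whether a group's 2 libraries are separate cultures, so p-values measure the spread between these libraries, which may be technical.

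A small fraction of cells in an ESC culture passes at any time through a state that resembles the 2-cell embryo, the stage at which the mouse embryonic genome is activated. The transcription factor DUX drives this state, and chromatin repressors such as TRIM28 and KDM1A hold it down. Its marker genes include single-copy genes and large tandem families, of which Zscan4 is the best known. In several of these families copies share long stretches of identical sequence. RNA was measured in bulk, so a larger number of 2-cell-like cells and more RNA per cell cannot be told apart.

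Sequence shared between copies limits what a single copy's count means. In the GENCODE M21 transcripts, 48.4% to 95.3% of all 50-base windows of a Zscan4 gene also occurred in another gene, and for Usp17l the range was 20.4% to 51.1%. It was 41.2% to 100% for Tdpoz, 16.8% to 31.4% for Tcstv and 48.1% to 59.3% for Trim43. By contrast 13 of the 94 members shared no such window, among them Pramel6, Pramel1, Pramef8 and Pramef12, and Pramel7 shared 0.442%. No source used here says how reads that match several genes were counted. The 8 members whose windows were all shared held 28 of the 60341 counts of the 94 members, 13 at most for a single one. Family sums are therefore given first, and values of single copies in Zscan4, Usp17l, Tdpoz, Tcstv, Trim43 and Obox (median of 69.5% shared) are uncertain, as are those of Pramef17 (73.5%), Pramef25 (63.6%) and Pramef6 (35.2%).

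**Figure D1:**
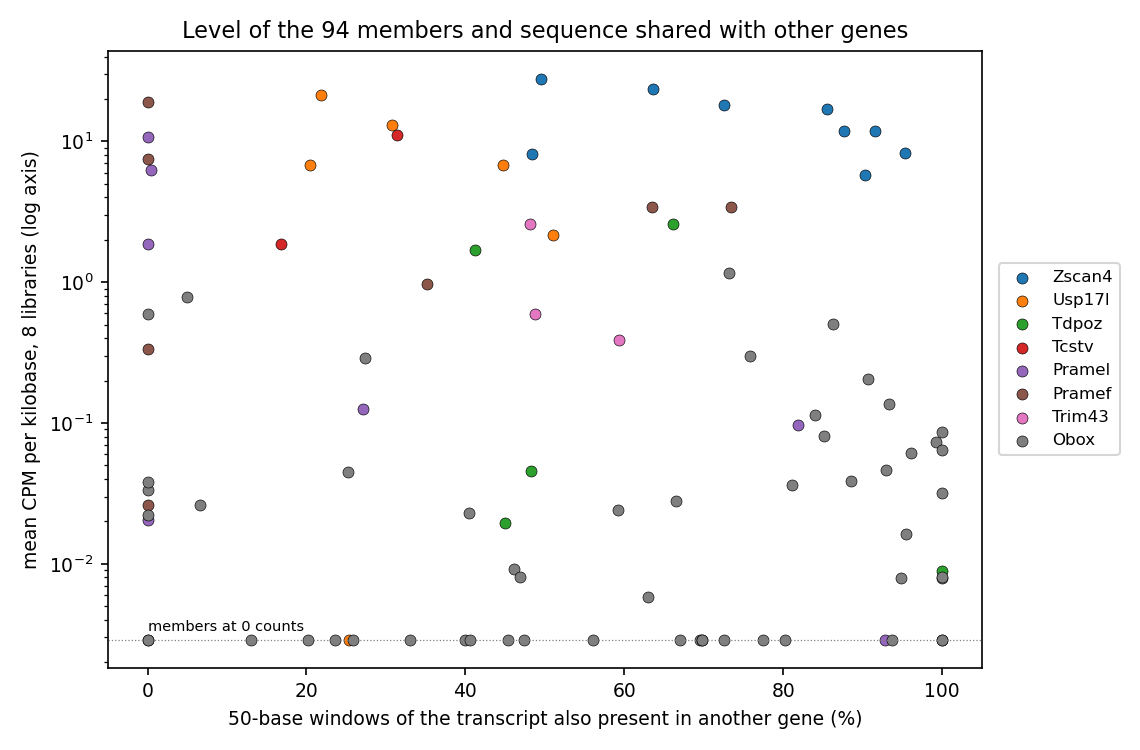
Each point is 1 of the 94 members, coloured by family. The horizontal axis gives the percent of 50-base windows of its transcript that occur in another gene, and the vertical log axis its mean CPM (counts scaled to library size) per kilobase over the 8 libraries, with members at 0 counts on the dotted line. Zscan4 genes are at once well counted (5.74 to 27.8 CPM per kilobase) and mostly shared (48.4% to 95.3%), whereas Pramef12 (19.0) and Pramel6 (10.7) share no window.

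The promoters of the Zscan4 copies show how alike the family is. Promoter windows, 250 bases before to 50 after the gene start, were taken from RefSeq (GRCm38.p6) and were available for 24 of the 94 members. The RefSeq start lay 158309 bases from the gene start in the count table for Obox1, 4675 for Pramel7 and 1624 for Usp17lc. For the other members it lay at most 239 bases away (Obox5). The 4 Zscan4 windows shown are all that had an entry, and those of Usp17lb, Tdpoz4, Pramel6 and Trim43a are shown because they had the highest mean CPM per kilobase in their family among tested members with an entry. Capitals mark matches to the motifs searched on both strands. The first, GATTNAATC, is the core of the site bound by DUX. The second, TGCACAC, is bound by ZSCAN4 in published binding data. Homeodomains of the Obox and Crx type bind the third, TAATCC. The last, TATAAA, is the core of the TATA box.
Zscan4b (chr7:10905001-10905300, minus strand): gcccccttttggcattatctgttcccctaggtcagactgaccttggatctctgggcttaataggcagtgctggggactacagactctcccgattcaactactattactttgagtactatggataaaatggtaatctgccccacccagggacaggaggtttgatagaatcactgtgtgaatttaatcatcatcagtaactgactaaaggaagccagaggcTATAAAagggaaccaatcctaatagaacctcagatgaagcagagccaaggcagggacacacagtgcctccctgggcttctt
Zscan4c (chr7:11005495-11005794, plus strand): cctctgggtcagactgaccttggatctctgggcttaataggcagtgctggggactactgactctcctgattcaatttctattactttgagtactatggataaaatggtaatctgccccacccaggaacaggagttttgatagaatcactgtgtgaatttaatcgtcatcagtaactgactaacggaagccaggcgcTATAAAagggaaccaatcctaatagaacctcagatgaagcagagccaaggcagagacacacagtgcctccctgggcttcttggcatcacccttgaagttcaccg
Zscan4d (chr7:11166099-11166398, minus strand): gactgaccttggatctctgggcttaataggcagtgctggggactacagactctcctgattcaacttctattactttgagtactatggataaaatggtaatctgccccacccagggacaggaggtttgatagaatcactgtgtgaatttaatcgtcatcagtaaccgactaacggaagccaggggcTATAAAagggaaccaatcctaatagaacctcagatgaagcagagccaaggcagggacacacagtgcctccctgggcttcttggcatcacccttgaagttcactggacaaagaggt
Zscan4f (chr7:11397665-11397964, plus strand): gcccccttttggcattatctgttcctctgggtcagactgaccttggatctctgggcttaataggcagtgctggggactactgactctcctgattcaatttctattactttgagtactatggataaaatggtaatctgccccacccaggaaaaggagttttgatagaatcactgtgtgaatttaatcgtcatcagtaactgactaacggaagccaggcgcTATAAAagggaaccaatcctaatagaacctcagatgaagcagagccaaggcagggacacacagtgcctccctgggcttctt
Usp17lb (chr7:104842534-104842833, minus strand): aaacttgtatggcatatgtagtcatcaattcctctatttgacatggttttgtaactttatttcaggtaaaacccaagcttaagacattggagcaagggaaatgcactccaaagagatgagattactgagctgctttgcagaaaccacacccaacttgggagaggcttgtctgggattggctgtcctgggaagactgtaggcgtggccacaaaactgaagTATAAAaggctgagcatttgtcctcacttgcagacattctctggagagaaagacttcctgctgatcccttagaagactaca
Tdpoz4 (chr3:93796148-93796447, plus strand): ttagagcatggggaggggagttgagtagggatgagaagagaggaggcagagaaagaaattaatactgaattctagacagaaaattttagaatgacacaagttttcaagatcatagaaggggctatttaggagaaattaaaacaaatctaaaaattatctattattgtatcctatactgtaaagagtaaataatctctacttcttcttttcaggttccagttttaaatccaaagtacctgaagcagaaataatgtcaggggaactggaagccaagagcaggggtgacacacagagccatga
Pramel6 (chr2:87506315-87506614, plus strand): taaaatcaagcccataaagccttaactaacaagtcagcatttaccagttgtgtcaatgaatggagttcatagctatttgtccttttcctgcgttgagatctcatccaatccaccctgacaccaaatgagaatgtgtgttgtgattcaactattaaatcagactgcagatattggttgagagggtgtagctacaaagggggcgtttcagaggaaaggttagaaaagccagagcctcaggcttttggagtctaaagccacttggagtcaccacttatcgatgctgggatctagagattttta
Trim43a (chr9:88580641-88580940, plus strand): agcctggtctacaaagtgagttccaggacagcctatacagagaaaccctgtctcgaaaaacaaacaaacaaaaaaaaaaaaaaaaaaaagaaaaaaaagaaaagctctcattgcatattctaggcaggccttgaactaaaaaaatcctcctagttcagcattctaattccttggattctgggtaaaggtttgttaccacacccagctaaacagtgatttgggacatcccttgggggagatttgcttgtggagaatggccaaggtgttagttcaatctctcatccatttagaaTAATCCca
Identity between aligned Zscan4 windows, with unaligned ends counted as differences, ran from 77.5% (Zscan4d and Zscan4f) to 95.7% (Zscan4b and Zscan4f). Windows follow each annotated start, so pairs with shifted starts had lower values. The range therefore does not rank how alike the copies are in sequence. The match to TATAAA began 31 bases before the annotated start in Zscan4b and Zscan4f, 54 before in Zscan4c and 65 before in Zscan4d. The capitals in Usp17lb mark the same letters, also 31 bases before its start, and Usp17lc and Usp17ld hold them 88 and 110 bases before theirs. TATAAA thus occurred in 4 of 4 Zscan4 and 3 of 4 Usp17l windows and in 9 of 24 member windows (37.5%), against 13.6% of all 32851 promoter windows. In Obox3 and Pramel, both untested, it lay 189 and 242 bases before the start. TAATCC occurred in 5 of 24 (20.8%) against 7.06%, and Trim43a was the only tested member among the 5. Copies of a family resemble each other, so the 24 windows are not independent. GATTNAATC occurred in 0 of 24 against 0.268% of all windows, and TGCACAC in 0 of 24 against 4.40%. These matches are letters in a short window and were not tied to binding.

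Zfp462 was lower in every knockout library but far from absent. Its level was 183 and 197 CPM in control against 104 and 107 CPM in knockout ESCs, and 153 and 130.3 CPM in control against 102 and 102 CPM in knockout EBs. This checks the labels only in part, since no source used here names the edited exon. Libraries held 12119763 to 16228426 counts. Knockout ESC replicate 2 stood apart by its GC content trend and knockout EB replicate 1 by transcripts of adult liver: the summed level of 15 liver markers was 2259 CPM there and 16.4 to 42.2 CPM in the other 7 libraries. The tested members have a median GC content of 45.6%, against 49.7% for all tested genes. In knockout ESC replicate 2, 31 of 34 tested members were higher than in knockout ESC replicate 1, with a median log2 difference of 0.36, and by 0.24 once each library's GC trend was removed. Without knockout ESC replicate 2 the knockout to control ratio of the sum over all members in ESCs was 3.05, and without knockout EB replicate 1 that in EBs was 4.14.

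Taken as a whole, the 94 members were at 330.2 and 342 CPM in control ESCs and at 1024 and 1351 CPM in knockout ESCs. In EBs their sum was 129.9 and 143 CPM in control and 519 and 566 CPM in knockout. All 4 groups were separate, in the order control EBs, control ESCs, knockout EBs, knockout ESCs from low to high. That order held for 7 of the 8 family sums, again with no overlap between neighbouring groups, and Trim43 was the exception. Among the 34 tested members 26 had this order of group means and 21 of those had no overlap between neighbours. The share of all tested genes with this order was not computed, so these counts do not show how unusual it is. The sum over all members in knockout EBs was 1.61 times that in control ESCs.

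**Figure D2:**
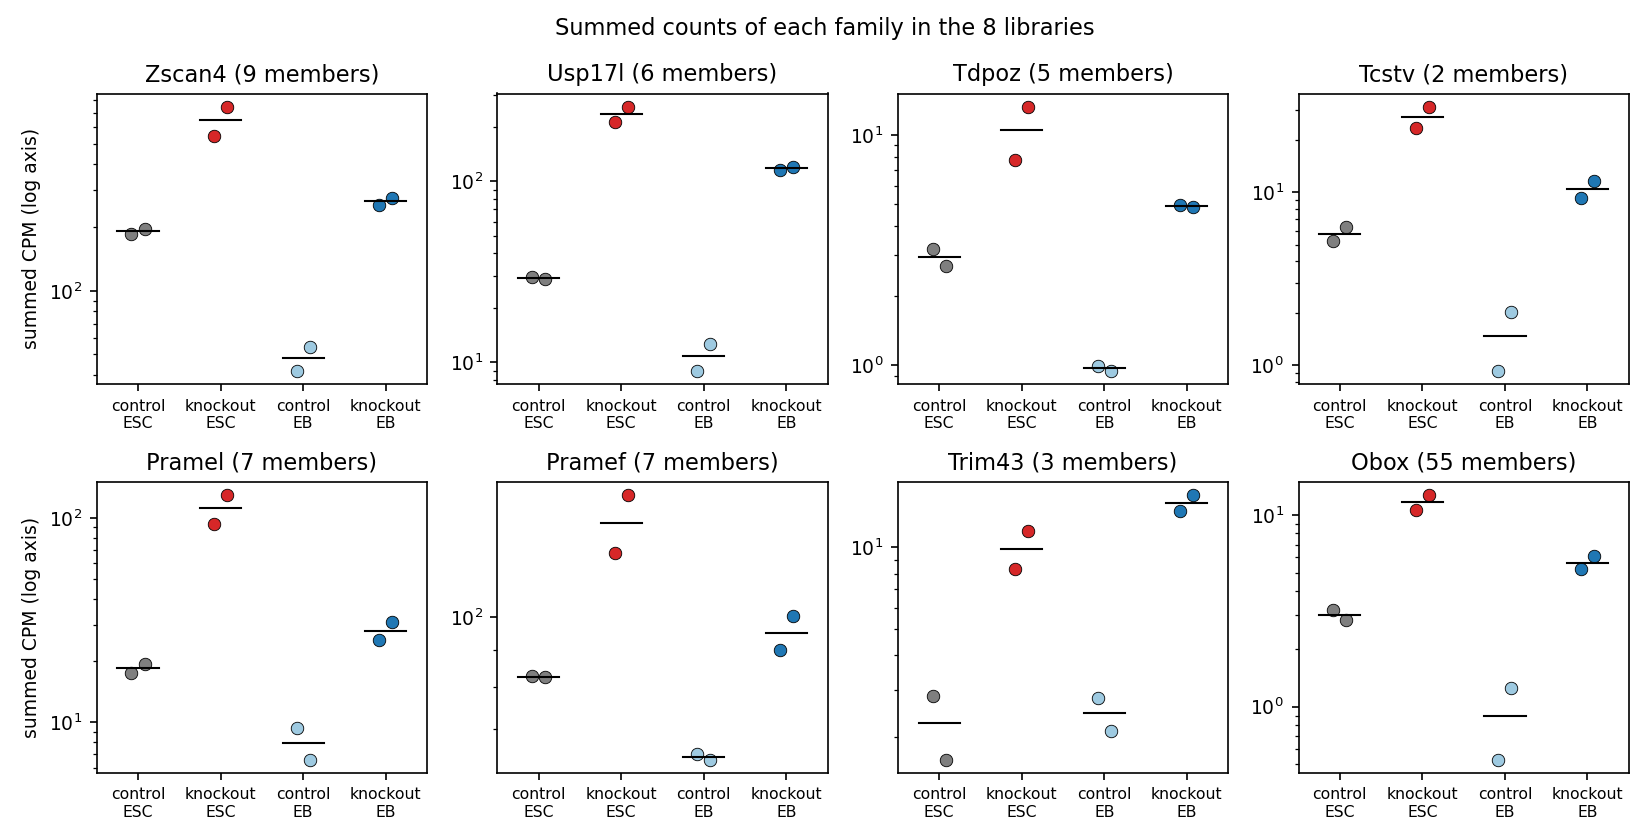
Summed CPM of all members of each family (log axis, 1 panel per family), with 1 point per library and a bar at the mean of each group of 2. Knockout libraries lie above control libraries of the same stage in all 8 panels, and in every panel but that of Trim43 control EBs are lowest and knockout ESCs highest.

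The knockout effect on single genes was tested with edgeR's quasi-likelihood test across all 17125 genes with enough counts, and a gene was called at a Benjamini-Hochberg adjusted p below 0.05. In ESCs, 26 of the 34 tested members were higher in knockout and 0 were lower, where 8.3% of all tested genes were called higher and 6.2% lower. In EBs, 24 of 34 were higher and 0 lower, where 4.75% of all genes were called higher and 2.04% lower. Obox4-ps16, Obox4-ps31, Obox4-ps33, Obox4-ps35, Trim43b and Trim43c had enough counts to be tested only through knockout libraries, which favours higher estimates. Of these only Obox4-ps33 was called, in ESCs. The median log2 change of the tested members was 1.72 in ESCs and 2.54 in EBs, against -0.03 and 0.00 over all tested genes. The calls that remained when any single one of the 8 libraries was left out numbered 18 in ESCs and 19 in EBs.

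**Figure D3:**
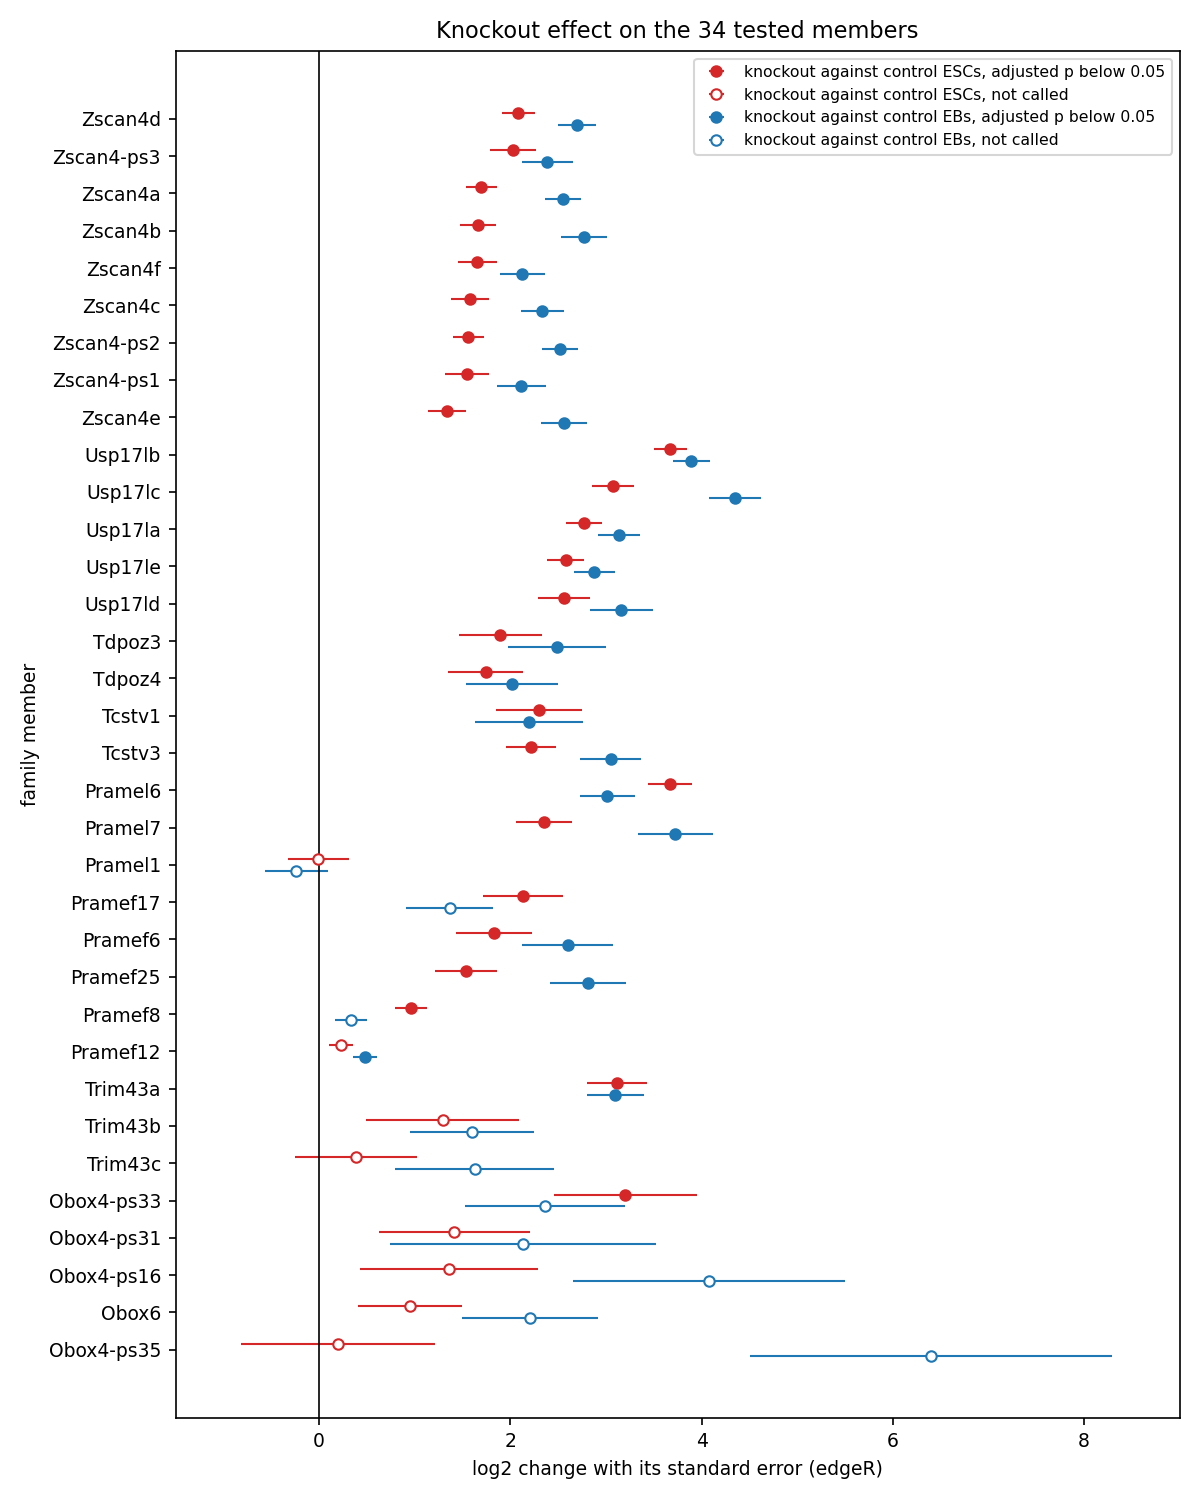
Log2 change between knockout and control with its standard error for the 34 tested members, in ESCs (red) and in EBs (blue). Filled points passed the adjusted p threshold of 0.05 and open points did not. All Zscan4 and Usp17l genes lie to the right of 0 in both stages, while Pramel1 lies at -0.01 in ESCs and -0.24 in EBs.

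Zscan4 genes encode zinc finger proteins with a SCAN domain that are known for lengthening telomeres in ESCs. The 9 copies lie on chromosome 7 (chr7:10794242-11614112, mm10). Their summed level was 186 and 198 CPM in control against 545 and 747 CPM in knockout ESCs, a ratio of 3.37 (2.76 to 4.03 over the pairings of 1 knockout with 1 control library). In EBs it was 41.7 and 54.2 CPM in control and 256 and 276 CPM in knockout, a ratio of 5.54 (4.72 to 6.61). Knockout and control libraries did not overlap at either stage, and the ratios were 2.85 without knockout ESC replicate 2 and 5.75 without knockout EB replicate 1. All 9 copies rose in both comparisons, by 1.34 to 2.08 on the log2 scale in ESCs and by 2.11 to 2.77 in EBs.

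Zscan4d, one of the copies best known from 2-cell embryos, had the highest level per length of all members, 27.8 CPM per kilobase on average over the 8 libraries. It stood at 36.2 and 33.2 CPM in control against 120.1 and 174 CPM in knockout ESCs, and 10.5 and 8.39 CPM in control against 57.1 and 65.9 CPM in knockout EBs. Every knockout library exceeded every control library, also across stages. The log2 change was 2.08 ± 0.17 in ESCs (adjusted p = 4.54e-05) and 2.70 ± 0.19 in EBs (6.16e-05). Zscan4c, the copy most used to mark this state in ESCs, changed by 1.58 ± 0.19 (adjusted p = 0.000479) and 2.33 ± 0.22 (0.000283), from 25.1 and 32.4 to 76.6 and 95.6 CPM in ESCs and from 5.17 and 8.31 to 31.3 and 36.1 CPM in EBs. For Zscan4c, knockout EB replicate 1 lay just below control ESC replicate 2 of the other stage, and all other knockout libraries exceeded every control library for this gene.

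The mixture of Zscan4 copies moved less than the sum, which moved several fold. In ESCs the share of Zscan4d was 19.5% and 16.8% in control against 22.0% and 23.3% in knockout, without overlap. That of Zscan4e was 8.64% and 9.13% against 7.77% and 5.89%, also without overlap. How shared reads were counted is not known, so these shares are uncertain. Zscan4a made up 19.7% of the family's counts in control ESCs and 19.0% in knockout ESCs, and Zscan4d 18.1% and 22.7%. Over the 8 libraries the share of Zscan4d ran from 15.5% to 25.1% and that of Zscan4a from 15.7% to 19.9%. Without Zscan4d the summed level of the other copies still differed by 1.67 in ESCs and 2.41 in EBs on the log2 scale. GENCODE M21 labels Zscan4a a pseudogene and Zscan4-ps1, Zscan4-ps2 and Zscan4-ps3 protein-coding, the reverse of their names.

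Obox genes encode homeodomain proteins that act at activation of the embryonic genome. The prefix took in 55 genes, of which 7 are annotated as protein-coding and 48 are not. The sum of the 55 was 3.18 and 2.83 CPM in control against 10.6 and 12.7 CPM in knockout ESCs, and 0.530 and 1.25 CPM in control against 5.20 and 6.09 CPM in knockout EBs. The knockout to control ratio was 3.88 in ESCs and 6.32 in EBs, with no overlap. The EB ratio rests on 8 and 16 control counts, ran from 4.14 to 11.5 over pairings and was 10.6 without control EB replicate 2. Without the 2 libraries that stood apart the ratios were 3.55 and 6.82. Most of these counts did not come from protein-coding genes: the 7 coding genes had 13 and 18 counts in control ESCs and 27 and 47 counts in knockout ESCs, while the 48 others had 26 and 28 against 119 and 127 counts.

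A single Obox gene was called, and only in ESCs. Obox4-ps33, a pseudogene, rose by 3.20 ± 0.75 on the log2 scale (adjusted p = 0.0167), from 0.407 and 0.307 to 2.70 and 3.93 CPM, and lost its call without any one of 3 of the 4 ESC libraries. In EBs its change of 2.36 ± 0.84 did not pass (adjusted p = 0.128). Obox4-ps33 had 5 and 5 counts in control ESCs and 0 and 7 in control EBs. Only its knockout libraries gave it enough counts to be tested, which favours a higher estimate. Obox6, the coding member with the most counts, stood at 0.977 and 1.04 CPM in control against 1.82 and 2.11 CPM in knockout ESCs. Its 2 groups did not overlap, but its change of 0.95 ± 0.54 did not pass (adjusted p = 0.289). Obox4-ps16 and Obox4-ps35 each had a control or knockout group whose 2 libraries lay far apart, and Obox4-ps35 was at 0 counts in both control EB libraries.

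Usp17l genes encode deubiquitinating enzymes, first described as cytokine-induced DUB proteins. They had the largest ratios of the 8 families at both stages. Their sum was 29.7 and 29.0 CPM in control against 212 and 258 CPM in knockout ESCs, a ratio of 8.01 (7.13 to 8.91 over pairings). In EBs it was 8.95 and 12.6 CPM in control and 115 and 121 CPM in knockout, a ratio of 10.9 (9.12 to 13.5). The lowest knockout library was thus above the highest control library of either stage, and the ratios were 7.22 and 11.2 without the 2 libraries that stood apart. All 5 tested members rose in both comparisons and kept their calls without any one library, by 2.56 to 3.67 in ESCs and by 2.88 to 4.35 in EBs on the log2 scale.

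Usp17lb changed the most in ESCs. It stood at 6.03 and 6.33 CPM in control against 67.7 and 90.5 CPM in knockout ESCs, and 2.72 and 3.37 CPM in control against 44.8 and 45.4 CPM in knockout EBs. The log2 change was 3.67 ± 0.17 in ESCs (adjusted p = 1.67e-06) and 3.89 ± 0.19 in EBs (1.67e-05). In EBs Usp17lc, another deubiquitinase copy, had the larger change, 4.35 ± 0.27 (adjusted p = 4.10e-05), from 0.597 and 1.25 CPM to 17.5 and 19.7 CPM.

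The mixture of Usp17l copies shifted toward Usp17lb. Its share of the family's counts was 20.3% and 21.8% in control ESCs and 31.9% and 35.0% in knockout ESCs. In EBs the share was 30.4% and 26.7% in control and 38.9% and 37.6% in knockout. Usp17le went the other way, from 36.7% and 32.6% to 26.2% and 25.5% in ESCs and from 32.6% and 39.1% to 25% and 23.5% in EBs. For both copies the knockout and control shares did not overlap at either stage, and the level of Usp17le itself rose (2.58 ± 0.19 in ESCs and 2.88 ± 0.22 in EBs).

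**Figure D4:**
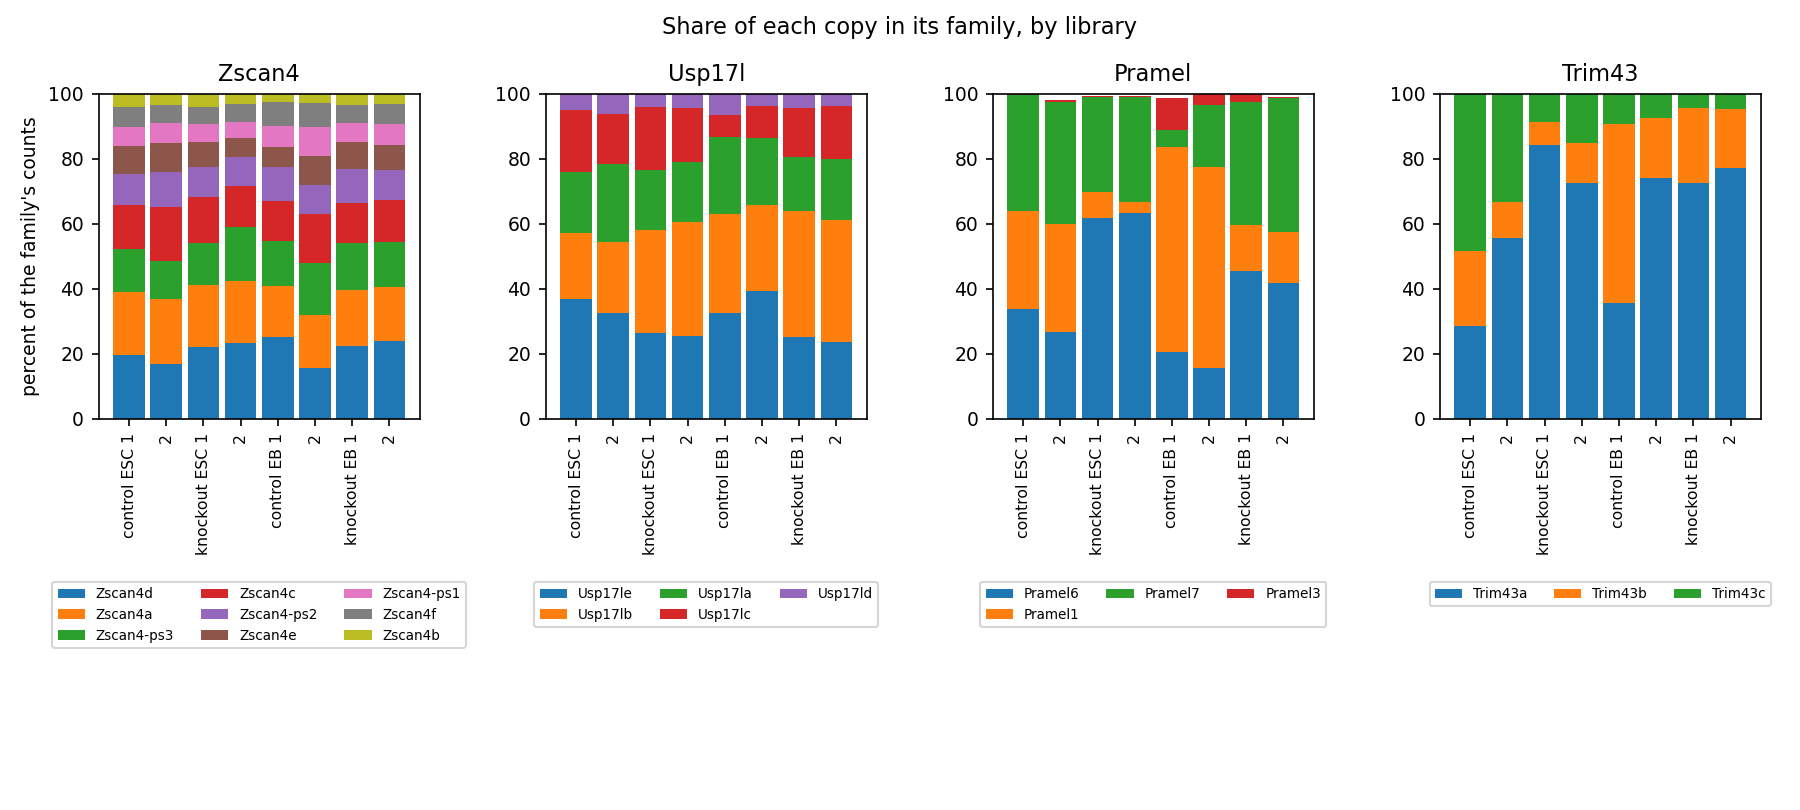
Stacked bars give the percent of a family's counts that each copy holds in each of the 8 libraries, for Zscan4, Usp17l, Pramel and Trim43 (copies that reach 2% in some library). The Zscan4d share runs from 15.5% to 25.1% over the libraries, whereas the Pramel6 share goes from 33.6% and 26.7% in control ESCs to 61.8% and 63.4% in knockout ESCs.

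Trim43 genes encode proteins of the tripartite motif type, many of which are ubiquitin ligases, and are expressed in preimplantation embryos. Their sum was 2.85 and 1.66 CPM in control against 8.31 and 11.4 CPM in knockout ESCs, and 2.78 and 2.12 CPM in control against 13.6 and 15.5 CPM in knockout EBs. It was the one family sum that was higher in knockout EBs than in knockout ESCs and that overlapped between control EBs and control ESCs. Knockout to control ratios were 4.38 in ESCs and 5.95 in EBs, and 3.69 and 6.33 without the 2 libraries that stood apart.

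Trim43a held 78.4% of the family's counts in knockout ESCs and 74.7% in knockout EBs. It was at 0.814 and 0.921 CPM in control against 7.0 and 8.30 CPM in knockout ESCs, and 0.995 and 1.57 CPM in control against 9.87 and 11.9 CPM in knockout EBs. Knockout libraries were above every control library, and the log2 change was 3.12 ± 0.31 in ESCs (adjusted p = 0.000148) and 3.10 ± 0.30 in EBs (0.000283). Trim43b had a change of 1.29 ± 0.80 in ESCs and 1.60 ± 0.65 in EBs, and Trim43c of 0.39 ± 0.64 and 1.63 ± 0.83, none of which passed. In ESCs the 2 groups overlapped for both genes, and Trim43c also overlaps 9330159M07Rik on the opposite strand.

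Tdpoz genes encode proteins with TRAF and POZ domains, a structure shared with ubiquitin ligase adaptors. Their sum was 3.18 and 2.70 CPM in control against 7.80 and 13.2 CPM in knockout ESCs, and 0.995 and 0.941 CPM in control against 4.97 and 4.87 CPM in knockout EBs. The ratios were 3.58 in ESCs and 5.08 in EBs, with no overlap. Without the 2 libraries that stood apart they were 2.65 and 5.03. Tdpoz3 rose by 1.90 ± 0.43 in ESCs (adjusted p = 0.0146) and 2.49 ± 0.51 in EBs (0.0177), and Tdpoz4 by 1.74 ± 0.39 (0.0144) and 2.02 ± 0.48 (0.0328). Both genes lost these calls when certain single libraries were left out, with adjusted p up to 0.187 for Tdpoz3 and 0.215 for Tdpoz4. The other 3 Tdpoz genes were not tested.

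The roles of Tcstv1 and Tcstv3, genes named for their variable expression at the 2-cell stage, are less well known. They lie on chromosome 13 (chr13:119893388-120318178, mm10). Their sum was 5.21 and 6.33 CPM in control against 23.6 and 31.3 CPM in knockout ESCs, and 0.928 and 2.04 CPM in control against 9.26 and 11.7 CPM in knockout EBs. Groups did not overlap, with ratios of 4.75 in ESCs and 7.07 in EBs, or 4.08 and 7.90 without the 2 libraries that stood apart. The EB ratio ran from 4.54 to 12.6 over pairings and was 11.3 without control EB replicate 2. Tcstv3 rose by 2.22 ± 0.26 in ESCs (adjusted p = 0.000346) and 3.05 ± 0.32 in EBs (0.000413). Tcstv1 rose by 2.30 ± 0.45 (0.00698) and 2.20 ± 0.56 (0.0439), and lost the ESC call without either control ESC library (adjusted p up to 0.119) and the EB call without any one of 5 libraries (up to 0.210).

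Pramel genes encode leucine-rich repeat proteins related to the human antigen PRAME. Pramel7 is known to direct UHRF1, a factor needed to maintain DNA methylation, to degradation, and Pramel6 is linked with it in naive pluripotency. Pramel6 and Pramel7 lie next to each other on chromosome 2, and their counts are little affected by shared sequence. The Pramel sum was 17.4 and 19.4 CPM in control against 93.5 and 129 CPM in knockout ESCs, and 9.35 and 6.59 CPM in control against 25.4 and 30.9 CPM in knockout EBs. The ratio was 6.05 in ESCs and 3.53 in EBs, the reverse of the order in the other families except Pramef. Without the 2 libraries that stood apart the ratios were 5.09 and 3.88. This order is that of the sum and not of each member. The log2 change was larger in ESCs for Pramel6 (3.67 against 3.02) and larger in EBs for Pramel7 (3.72 against 2.35). Pramel1, which was not called, held 31.9% of the counts in control ESCs and 62.5% in control EBs.

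Pramel6 stood at 5.86 and 5.16 CPM in control against 57.8 and 81.8 CPM in knockout ESCs, and 1.92 and 1.02 CPM in control against 11.5 and 12.9 CPM in knockout EBs. It rose by 3.67 ± 0.23 in ESCs (adjusted p = 8.53e-06) and by 3.02 ± 0.29 in EBs (0.000265). Every knockout library lay above every control library. Pramel7 was at 6.19 and 7.25 CPM in control against 27.2 and 41.7 CPM in knockout ESCs, and 0.464 and 1.25 CPM in control against 9.56 and 12.7 CPM in knockout EBs, and rose by 2.35 ± 0.29 (0.000488) and 3.72 ± 0.39 (0.000413). Pramel7 too was higher in each knockout library than in any control library.

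Pramel1 did not follow. It was at 5.29 and 6.45 CPM in control against 7.44 and 4.29 CPM in knockout ESCs, and 5.90 and 4.08 CPM in control against 3.61 and 4.87 CPM in knockout EBs. Knockout and control libraries overlapped at both stages, and its change was -0.01 ± 0.32 in ESCs (adjusted p = 0.994) and -0.24 ± 0.33 in EBs (0.736). Pramel1 made up 31.9% of the family's counts in control ESCs and 5.64% in knockout ESCs, and 62.5% and 15.0% in EBs. Without Pramel6 the remaining Pramel sum still differed by 1.69 in ESCs and 1.30 in EBs on the log2 scale.

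Pramef genes are a further group of PRAME-related leucine-rich repeat genes, clustered on chromosome 4. They had the smallest ratios of the 8 families. Their sum was 83.1 and 82.6 CPM in control against 123 and 147 CPM in knockout ESCs, and 64.6 and 63.6 CPM in control against 90 and 100.3 CPM in knockout EBs. The groups did not overlap, yet the ratio was 1.63 in ESCs and 1.48 in EBs, or 1.48 and 1.56 without the 2 libraries that stood apart.

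The family was split. Pramef12, known from spermatogonia of mouse testis, held 61.1% of the family's counts in control ESCs and stood at 49 and 52.2 CPM there against 58.2 and 60.7 CPM in knockout ESCs, with 32.6 and 38.9 CPM in control against 45.9 and 53.6 CPM in knockout EBs. Its change was 0.23 ± 0.12 in ESCs (adjusted p = 0.259) and 0.48 ± 0.13 in EBs (0.0477), the latter lost without any of several single libraries. Pramef8 was at 24.8 and 22.2 CPM in control against 39.4 and 52.2 CPM in knockout ESCs, and rose by 0.96 ± 0.16 (0.00323). In EBs its change of 0.34 ± 0.17 did not pass (adjusted p = 0.282). These genes without shared windows thus had the smallest changes of the family.

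Pramef25, Pramef17 and Pramef6 were at lower levels and moved by more. Pramef25 went from 3.75 and 4.30 to 10.9 and 12.6 CPM in ESCs and from 0.464 and 1.33 to 5.27 and 7.15 CPM in EBs (1.54 ± 0.32, adjusted p = 0.00992, and 2.82 ± 0.40, 0.00236). Pramef6 rose by 1.83 ± 0.40 (0.0120) and 2.60 ± 0.48 (0.00965). Pramef17 rose by 2.13 ± 0.42 in ESCs (0.00727), and its change of 1.37 ± 0.45 in EBs did not pass (0.107). The ESC calls of Pramef8, Pramef25, Pramef17 and Pramef6 were each lost without at least 1 of the control ESC libraries, with adjusted p up to 0.0800, 0.139, 0.153 and 0.139, and the EB call of Pramef6 without control EB replicate 1 or knockout EB replicate 1 (up to 0.117). Without Pramef12, the remaining Pramef sum differed by 1.23 in ESCs and 0.68 in EBs on the log2 scale.

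Higher levels in knockout were called both with and without shared sequence. Among the 6 tested members with under 1% of windows shared, 3 were called higher in ESCs (Pramel6, Pramel7 and Pramef8) and 3 in EBs (Pramel6, Pramel7 and Pramef12). Among the 13 with 1% to 50% shared, 11 were called in ESCs and 11 in EBs. Among the 15 with 50% or more, 12 were called in ESCs and 10 in EBs. From least to most shared, the median log2 change of the classes was 0.60, 2.22 and 1.65 in ESCs and 1.75, 2.70 and 2.49 in EBs. The class under 1% holds only Pramel, Pramef and Obox genes, and no Zscan4, Usp17l, Tdpoz, Tcstv or Trim43 gene. Sharing and family therefore cannot be told apart, and the difference between these classes was not tested.

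Differentiation without the knockout lowered most of these families. From control ESCs to control EBs, 19 of 34 tested members fell and 0 rose, where 9.63% of all genes were called lower and 8.6% higher. All 9 Zscan4 and all 5 Usp17l genes were among the 19. The Zscan4 sum in control EBs was 0.250 of that in control ESCs, and the ratio was 0.257 for Tcstv, 0.297 for Obox, 0.329 for Tdpoz, 0.367 for Usp17l, 0.433 for Pramel and 0.774 for Pramef. Without control EB replicate 2 it was 0.160 for Tcstv and 0.176 for Obox. Trim43, at 1.09 times, overlapped between stages.

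In knockout cells 20 of 34 tested members were lower in EBs than in ESCs and 0 higher, where 7.11% of all genes were called lower and 8.23% higher. All 9 Zscan4 and 5 Usp17l genes were again among them. Without knockout EB replicate 1, the library with liver transcripts, 12 members were called, and Zscan4-ps1, Zscan4e, Usp17lb and Usp17ld were among those that lost the call. The ratio of knockout EBs to knockout ESCs was 0.411 for Zscan4, 0.501 for Usp17l, 0.253 for Pramel and 0.705 for Pramef, and 1.48 for Trim43, without overlap in any of them. The sums in knockout EBs were 1.39 (Zscan4), 4.02 (Usp17l), 1.67 (Tdpoz), 1.82 (Tcstv), 1.53 (Pramel), 1.15 (Pramef), 6.47 (Trim43) and 1.88 (Obox) times those in undifferentiated control ESCs.

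Whether the knockout effect differed between the stages depended on the fit. In edgeR's test of the difference, 0 of 34 members were called, where 0.742% of all genes had a larger log2 change in EBs and 0.642% a smaller one. At an unadjusted p below 0.05 there were 11 members by edgeR and also 11 by DESeq2, and 27 of 34 had a positive estimate. The shares of all tested genes at these marks were not computed, and copies that share reads are not independent. The median edgeR estimate was 0.60 over the members and 0.03 over all tested genes. The smallest adjusted p by edgeR was that of Zscan4e (1.22 ± 0.31, adjusted p = 0.107). DESeq2 called 1 member, Zscan4e (adjusted p = 0.0129), and gave no adjusted p for 9. With each library's GC trend removed edgeR called Zscan4a, Zscan4e and Zscan4-ps2, and without a filter on low counts it called 6 members. For all 9 Zscan4 genes the estimate was positive, from 0.36 to 1.22. The 2 knockout comparisons and this one share libraries and are not independent of each other.

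Other genes of the same state moved alongside the families. Of 10 listed genes 9 were tested, of which 6 were called higher in ESCs (median log2 change 2.21) and 8 in EBs (2.75), and 0 were lower. Without Duxf3, which the list holds but which is not single-copy, 6 and 7 of 8 were called higher (medians 2.24 and 2.35), where 8.3% and 4.75% of all genes were. The list was chosen with earlier results of these data known, so these counts only describe its genes. Zfp352, a retrogene of the 2-cell embryo, was at 0.570 and 1.29 CPM in control against 6.34 and 10.3 CPM in knockout ESCs, and 0.133 and 0 CPM in control against 2.11 and 2.66 CPM in knockout EBs, and rose by 3.10 ± 0.47 (adjusted p = 0.00150) and 4.89 ± 0.76 (0.00433). Tmem92 rose by 2.15 ± 0.18 (4.54e-05) and 2.75 ± 0.20 (6.16e-05), Ubtfl1 by 2.21 ± 0.37 (0.00263) and 3.00 ± 0.48 (0.00471), and Sp110 by 2.39 ± 0.35 (0.00125) and 1.74 ± 0.36 (0.0187). The order of groups for Tmem92 matched that of most families, with 7.65 and 7.06, 32.7 and 32.5, 2.72 and 3.84, and 20.9 and 23.1 CPM in control ESCs, knockout ESCs, control EBs and knockout EBs.

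Of the activators of the program, Duxf3, also counted above, which encodes DUX and itself lies in a tandem array, was at 1.38 and 0.737 CPM in control against 2.33 and 1.46 CPM in knockout ESCs, and 0.0663 and 0.314 CPM in control against 1.73 and 2.66 CPM in knockout EBs. Its change was 0.86 ± 0.55 in ESCs (adjusted p = 0.358) and it rose by 3.53 ± 0.71 in EBs (0.0153). Its level overlapped between knockout ESCs and knockout EBs. Of the 7 activators tested, 2 were higher in ESCs (Tbx3 by 0.62 ± 0.14, adjusted p = 0.0133, and Nelfa by 0.47 ± 0.09, 0.00680) and 2 were lower (Dppa3 by -1.43 ± 0.19, 0.000761, and Dppa4 by -0.44 ± 0.08, 0.00589). In EBs 2 were higher, Duxf3 and Tbx3 (1.35 ± 0.14, 0.000420), and 0 lower. DPPA2, which with DPPA4 opens the Dux locus, had RNA changes of 0.27 ± 0.11 (0.128) and 0.11 ± 0.11 (0.625).

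Of 27 repressors of the program, 0 were higher and 4 lower in ESCs, and 0 were higher and 3 lower in EBs, where 6.2% and 2.04% of all genes were called lower. In ESCs, on the log2 scale, Lin28a fell by 0.97 ± 0.08 (adjusted p = 5.73e-05), Kdm1a by 0.53 ± 0.08 (0.00182), Cbx1 by 0.47 ± 0.10 (0.00907) and Pcgf6 by 0.34 ± 0.09 (0.0353). In EBs Lin28a fell by 0.56 ± 0.08 (0.00311), Cbx1 by 0.41 ± 0.10 (0.0330) and Chaf1b by 0.36 ± 0.09 (0.0344). Trim28, which encodes a corepressor of endogenous retroviruses, had a change of -0.15 ± 0.13 in ESCs (0.523) and -0.02 ± 0.13 in EBs (0.948). The list's median was -0.17 in ESCs and -0.18 in EBs, beside -0.03 and 0.00 over all genes.

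Markers of other cell types were read beside the families, since oocytes and germ cells express some of them. The summed level of 9 oocyte markers was 5.65 to 10.3 CPM over the 8 libraries with 0 of the 2 tested genes called, and Oosp1 was at 0 in every group. The 10 testis germ cell markers summed to 24.0 to 33.4 CPM, of which Ddx4 gave 17.4 to 22.9, and Prm2 was at 0 in every library. In ESCs 1 of 3 tested testis markers was called lower (Stra8, -1.60 ± 0.47, adjusted p = 0.0437). Fibroblast markers summed to 11.2 to 19.9 CPM, and 1 of 3 tested was called higher in ESCs (Col1a2, 1.37 ± 0.39, adjusted p = 0.0397). In EBs 0 testis and 0 fibroblast markers were called. Extraembryonic endoderm markers moved with the knockout: 14 of 15 were called higher in ESCs and 15 of 15 in EBs, where 8.3% and 4.75% of all genes were. Their sum was 2918 and 3076 CPM in control against 13042 and 10243 CPM in knockout ESCs. In EBs it was 3451 and 3688 CPM in control against 6942 and 7428 CPM in knockout. The list includes Ttr and Apoa1, also liver genes, so their values in knockout EB replicate 1, the library with liver transcripts, are uncertain. ESC markers were lower in knockout ESCs for 5 of 8 genes and higher in knockout EBs for 4 of 8. Early EB (formative epiblast) markers summed to 1790 and 1887 CPM in control against 1136 and 1111 CPM in knockout EBs, with 4 of 5 called lower. In knockout ESCs 2 of these 5 were called higher and 3 lower. The part of these marker differences in the rise of the families was not tested.

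Some genes close to the families were higher in knockout as well. Of 117 tested genes within 500 kb of a member that are not members themselves, 23 (19.7%) were higher in knockout ESCs and 3 lower, and 14 (12%) were higher in knockout EBs and 2 lower, beside the shares of all genes given above, and the difference was not tested. Around Tcstv, 6 of 18 tested neighbours were higher at both stages, and Gm21761, the one with the most counts, was at 21.8 and 22.1 CPM in control against 77.4 and 102.8 CPM in knockout ESCs, and 5.17 and 5.88 CPM in control against 40.1 and 45.0 CPM in knockout EBs. This is the order of groups seen in the Tcstv sum itself. Around Pramef, Gm13119, Gm13128 and BC080695 were higher at both stages, and around Obox, Crxos, a homeobox gene on chromosome 7, rose by 2.34 ± 0.27 in ESCs (adjusted p = 0.000317) and 2.75 ± 0.30 in EBs (0.000506). Several called neighbours share sequence with members. Pramef17 has 73.5% of its 50-base windows in Gm13128, Pramef6 has 31.4% in Gm13083 and Tdpoz4 has 31.0% in Gm5541. Tcstv3 shares windows with 8 genes that are not members, most with Gm21818, another of these neighbours. Gm25774 lies within the span of Usp17lc. Counts of such gene models and of members cannot be told apart fully, so the 23 and 14 include genes that are not separate from the families.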

How the data were processed

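Poly(A)-selected RNA was sequenced in 8 libraries, 2 for each of 4 groups set by the labels. The deposited table holds raw counts per gene, which the authors made with HISAT2 and featureCounts on mm10, per the submitters' processing notes, which also name DESeq2; no source used here gives versions, strand setting or the treatment of reads with several matches. With no strand setting given, counts of genes that overlap on opposite strands are uncertain. IDs were matched to GENCODE M21 symbols (55141 of 55401).

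Counts were scaled with TMM factors, filtered with filterByExpr and tested with edgeR's quasi-likelihood test over all 8 libraries with 1 mean per group (biological coefficient of variation 0.132). Adjusted p is Benjamini-Hochberg over 17125 genes. CPM and family sums were computed from the counts, and family sums had no test. DESeq2 1.42.0, edgeR 4.0.16 and limma 3.58.1 were run in R 4.3.3. The script was tested on simulated data.

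The rule for named genes took, per family, up to 4 tested members with the highest mean CPM per kilobase, any member moving against its family sum, any called in the difference, Pramel6 and Pramel7, and the genes with the smallest adjusted p of the single-copy, activator and repressor lists. Members and lists were chosen with earlier results of these data known. Alternatives were median-of-ratios factors, library totals, other count filters, DESeq2, removal of each library's GC trend, a replicate block and leaving out each library. The same-numbered libraries did not deviate together (correlation -0.071 to 0.021 over genes).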

Additional observations from a re-analysis of the deposited data

How the results depend on the processing

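The counts of members called in knockout ESCs, in knockout EBs and in control EBs against control ESCs stayed within 1.5 times of those reported under every alternative run. Between knockout EBs and knockout ESCs the count was 12 to 22 with each library left out in turn, 12 being the value without knockout EB replicate 1. For the difference of the knockout effect, where 0 members were called, 6 were called without a low-count filter, 1 by DESeq2 and 3 with the GC trend removed. All of these had larger changes in EBs. The outcome also depended on the library left out, and not in 1 direction. Without knockout ESC replicate 1 the estimate was -0.80 for Pramef8, a smaller change in EBs, and 0.67 for Zscan4a, 1.22 for Zscan4e and 0.79 for Zscan4-ps2. With a replicate block, 26, 24, 19, 18 and 0 members were called in the 5 comparisons, and no call of a named member changed in the 2 knockout comparisons. Since the libraries share only a number, this block pairs nothing known to be paired. Pramel1 in ESCs, at -0.01, had a positive value with median-of-ratios factors (0.0002), library totals (0.0244), no filter (0.0010), a mean of at least 1 CPM (0.0285) and DESeq2 (0.0012), and ran from -0.46 to 0.33 with a library left out. In EBs it ran from -0.47 to 0.0523. Trim43c in ESCs ran from -0.38 to 1.14 and Obox4-ps35 from -2.36 to 1.08 with a library left out, and Obox4-ps35 was at -0.052 with the replicate block. None of these passed a test. The cause was not tested. Of the family ratios recomputed, 436 moved by less than the replicate spread and 4 by more (3 with the GC trend removed, 1 with library totals). Most of the 436 came from leaving out 1 library. With 2 libraries a group, the spread is the gap between those same 2, so leaving 1 out could hardly exceed it. The 436 therefore do not show stability. Without control EB replicate 2, Tcstv and Obox ratios moved 1.60 to 1.69 times and still counted as less. Low counts limit Obox, Tdpoz, Tcstv and Trim43, and 2 libraries a group limit all p-values.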
